A study of Mus musculus with 6 samples.

Results

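The genes described here are 10 regulators of entry into the cell cycle from G1: the D-type cyclins Ccnd1, Ccnd2 and Ccnd3, their kinases Cdk4 and Cdk6, the inhibitors Cdkn1b, Cdkn2a, Cdkn2b and Cdkn2c, and Rb1. They were chosen by gene symbol from a table of 24404 genes, with the values of Klf5 LKO against control in these same libraries in view, so their differences between the groups are given as a description and without a p-value. All 10 were listed in the table, and 9 had reads. RNA came from biliary epithelial cells of the intrahepatic bile duct of adult C57BL/6 mice, and every sample was taken after 1 week of DDC, a chemical known to damage the biliary tree and to provoke a ductular reaction. The groups were 3 libraries of genotype Alfp-CreTg/+;Klf5flox/flox, called Klf5 LKO, and 3 of genotype Alfp-Cre+/+;Klf5flox/flox, called control. Both groups thus carried floxed Klf5, and only the first carried Cre, so an effect of the transgene itself cannot be told apart from loss of Klf5. Alfp-Cre is driven by albumin and alpha-fetoprotein regulatory elements, which are active in the liver progenitors of both hepatocytes and bile duct cells. Uninjured mice are not part of the comparison.

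D-type cyclins are made when growth signals reach a resting cell. They bind Cdk4 or Cdk6, and the complexes phosphorylate the retinoblastoma protein, which then releases E2F transcription factors and allows the genes of S phase to be expressed. The INK4 proteins, coded by Cdkn2a to Cdkn2d, bind Cdk4 and Cdk6 and keep cyclin D away, while p27, coded by Cdkn1b, binds cyclin and kinase complexes and chiefly blocks Cdk2. Bile duct cells are quiescent in healthy liver and enter the cell cycle when ducts are injured.

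The libraries held between 11726934 (control 2) and 24784167 (Klf5 LKO 2) reads assigned to genes, and values below are normalised counts, that is reads scaled by a size factor for each library. Klf5 itself, a zinc-finger transcription factor, had 2056, 2018 and 2316 normalised counts in control 1, 2 and 3, and the Klf5 LKO libraries had 977, 1192 and 1183. Klf5 was lower in every Klf5 LKO library. Whole-gene counts also include exons outside the deleted part, and single exons were not counted, so the extent of deletion cannot be read from them. All 14 biliary markers looked at were present, with Krt19 between 6139 and 14735 and Epcam between 23402 and 28906. The stellate cell and fibroblast markers Lrat, Des, Pdgfra, Col1a2 and Col3a1 were at 0 in every library, and the sum of all 11 such markers was 15.6 to 75.2 in control and 35.1 to 86.3 in Klf5 LKO. Leukocyte transcripts differed between libraries of the same group: the sum of 14 markers, of which Cd74 and Csf1r were the most abundant, was 5714 to 27412 in control and 9093 to 20826 in Klf5 LKO, with Clec4f at 0 throughout. The 12 hepatocyte markers, led by Alb and Serpina1c, summed to 12201 to 15833 in control and 13930 to 17694 in Klf5 LKO, the 10 endothelial markers, led by Egfl7 and Clec4g, to 402 to 771 and 392 to 477, and the 5 mesothelial markers, led by Msln and Upk3b, to 1198 to 1323 and 9.86 to 168, most of it Msln. In bulk RNA, fewer cells of a type and less RNA per cell cannot be told apart. Separate animals are not named in the labels, so the p-values reflect how these libraries scatter and part of that scatter can be technical.

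Ccnd2 had a 1.95-fold higher mean in Klf5 LKO and Cdkn2c a 2.01-fold lower one, while the other D-type cyclins, Cdk4, Cdkn1b, Cdkn2b and Rb1 had overlapping values in the groups. In 3 of the 9 members with reads the groups did not overlap, 1 higher (Ccnd2) and 2 lower (Cdk6 and Cdkn2c). Over all 13490 tested genes, 15.6% did not overlap, 7.72% of all genes being higher and 7.88% lower in Klf5 LKO. In the limma fit across all genes, 1 of the 9 (Ccnd2, higher) had an adjusted p under 0.05, a threshold passed by 0.652% of all genes, 0.163% higher and 0.489% lower. DESeq2 on whole reads recovered from the table called 2 of the 9, Ccnd2 and Cdkn2c, where it called 2.48% of all genes. Because the members were picked with this contrast known, nothing is read from these counts. The limma count of 1 became 0 without control 1, without control 2, without Klf5 LKO 2 and with a term for leukocyte transcripts.

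**Figure D1:**
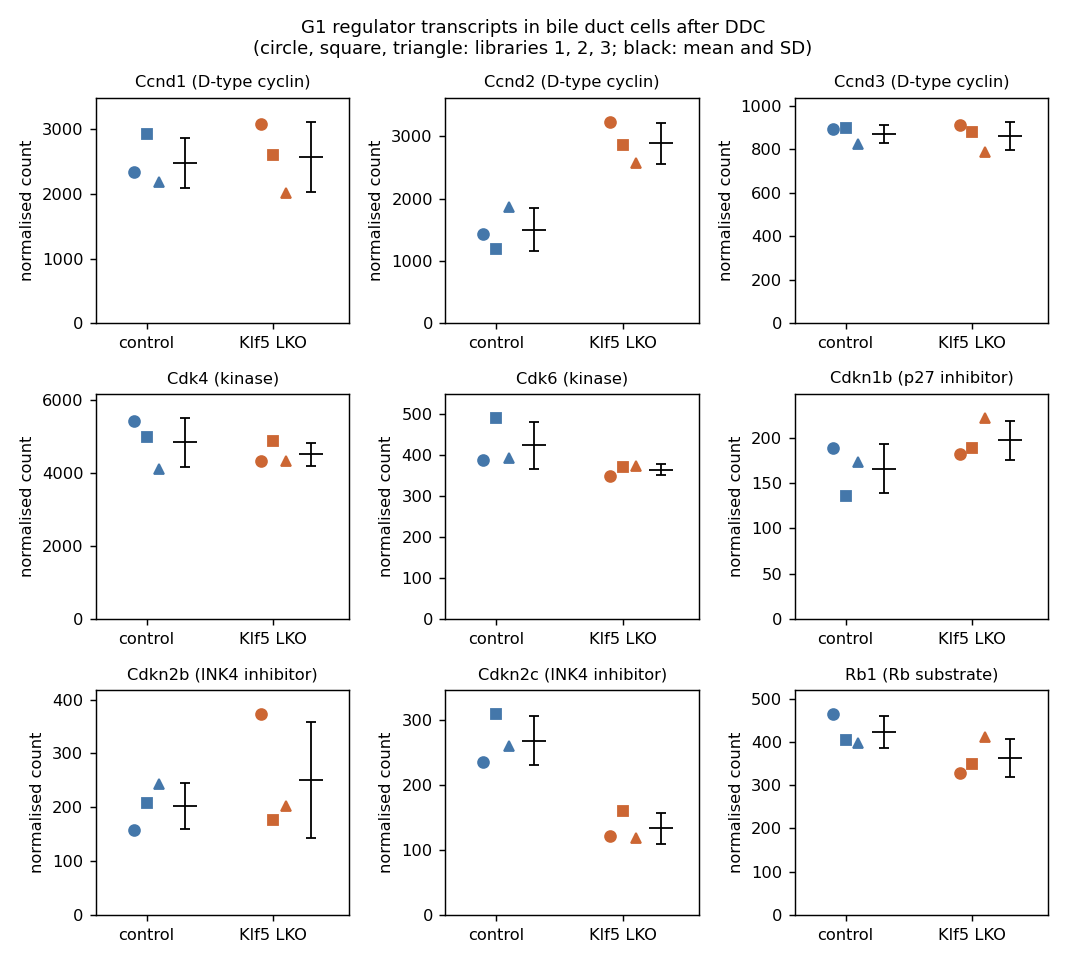
Normalised counts (vertical axis, from 0) of the 9 members with reads, 1 panel per gene, in 3 control (blue) and 3 Klf5 LKO (orange) libraries; circles, squares and triangles are libraries 1, 2 and 3, and black marks the mean and SD. The orange points lie above the blue ones for Ccnd2 and below them for Cdk6 and Cdkn2c, and the groups overlap in the other 6 panels.

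Ccnd2 (chromosome 6, 127125162 to 127152193, minus strand, mm10), the D-type cyclin best known from the ovary, lymphocytes and the pancreatic islet, had 1428, 1193 and 1873 normalised counts in control 1, 2 and 3, and 3227, 2866 and 2575 normalised counts in Klf5 LKO 1, 2 and 3. The lowest Klf5 LKO library was thus above the highest control library. The means were 1498 ± 345 and 2889 ± 327 (SD, n = 3 each), and the difference was 0.97 on the log2 scale (SE 0.17, interval at 95% confidence 0.60 to 1.34). It was 0.81 without control 2, 0.94 without control 1, 0.97 without Klf5 LKO 2 and 1.14 without control 3, and 0.89 (SE 0.17) with the leukocyte term. The authors' deposited table gives a log2 fold change of 0.81 (SE 0.15) for the gene. DESeq2 on the recovered reads gave 0.95 (SE 0.18), so the deposited value was not computed as in the fits here. The leukocyte term was the mean log2 value of the 14 leukocyte markers. It was 5.78, 5.04 and 3.11 in control 1, 2 and 3 against 4.64, 2.92 and 4.50 in Klf5 LKO 1, 2 and 3. The summed counts of the markers overlapped between the groups too. This mean weighs all 14 alike, and only 8 had a mean count of 10 or more. Laptm5 had 422 normalised counts in Klf5 LKO 1 and 38.3 in Klf5 LKO 3, while Lyz2 had 9.04 and 41.5. The term thus follows leukocyte RNA only roughly. Single markers of other lists separated the groups as Ccnd2 and Cdkn2c did. Over all 13490 tested genes, 7.72% were higher and 7.88% lower in Klf5 LKO without overlap. Of the 14 biliary markers, 3 were higher (Sctr, Cftr and Krt18) and 3 lower (Tspan8, Krt7 and Krt19) in every Klf5 LKO library, and of the 9 tested hepatocyte markers 1 was higher (Serpina1c) and 1 lower (Apob). Of the 2 tested mesothelial markers 1 was lower, Msln, with 1165, 1302 and 1258 normalised counts in control against 0, 103 and 30.9 in Klf5 LKO, while Upk3b overlapped. Col1a1 was higher and Pecam1 lower without overlap, both at low counts, and none of the 8 tested leukocyte markers separated. The part of these markers in the results for Ccnd2 and Cdkn2c was not tested. A pair of annotated antisense genes share 3.95% and 3.91% of the exon bases of Ccnd2, of which 9330179D12Rik had 1.58 to 33.0 normalised counts.

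Ccnd1 (chromosome 7, 144929931 to 144939925, minus strand), the D-type cyclin most studied in liver growth, had 2335, 2924 and 2189.5 normalised counts in control against 3089, 2603 and 2008 in Klf5 LKO. Klf5 LKO held both the highest and the lowest library. Its log2 fold change was 0.04 (SE 0.17), with 95% confidence bounds of -0.34 to 0.41, and leaving out 1 library at a time gave -0.11 to 0.20. The interval bounds the difference and does not show equal levels. In the annotation, 23.4% of the exon bases of Ccnd1 lie opposite LTO1, listed in the table under its older name Oraov1 with 145 to 262 normalised counts.

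Ccnd3 (chromosome 17, 47505051 to 47599691, plus strand) was the steadiest of the 3 cyclins, with 892, 898 and 824 normalised counts in control against 911, 882 and 788 in Klf5 LKO. Its log2 fold change was -0.02 (95% confidence interval -0.34 to 0.30). The 2 groups covered nearly the same range.

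The make-up of D-type cyclin mRNA is described by shares. To compare genes, each value was divided by the kilobases of annotated exon, and each cyclin was expressed as a share of the 3 within its library, a quantity that the size factor does not touch. Ccnd2 made up 20.3%, 14.9% and 26.3% in control 1, 2 and 3 against 31.1%, 31.8% and 34.6% in Klf5 LKO 1, 2 and 3. All 3 Klf5 LKO shares lay above the control shares, with means of 20.5 ± 5.67% and 32.5 ± 1.88% (SD, n = 3 each). The Ccnd1 share was 66.2%, 73.0% and 61.4% in control against 59.5%, 57.7% and 54.0% in Klf5 LKO, so it was lower in each Klf5 LKO library. Per kilobase it was the largest share in all 6 libraries, but with no division by length Ccnd2 was the largest in the 3 Klf5 LKO libraries, at 44.6%, 45.1% and 47.9% against 42.7%, 41.0% and 37.4% for Ccnd1. The Ccnd3 share was 13.6%, 12.0% and 12.4% against 9.42%, 10.5% and 11.4%. The levels of Ccnd1 and Ccnd3 themselves overlapped between the groups. The summed D-type cyclin level was 749, 850 and 758 normalised counts per kilobase in control against 1103, 958 and 790 in Klf5 LKO.

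**Figure D2:**
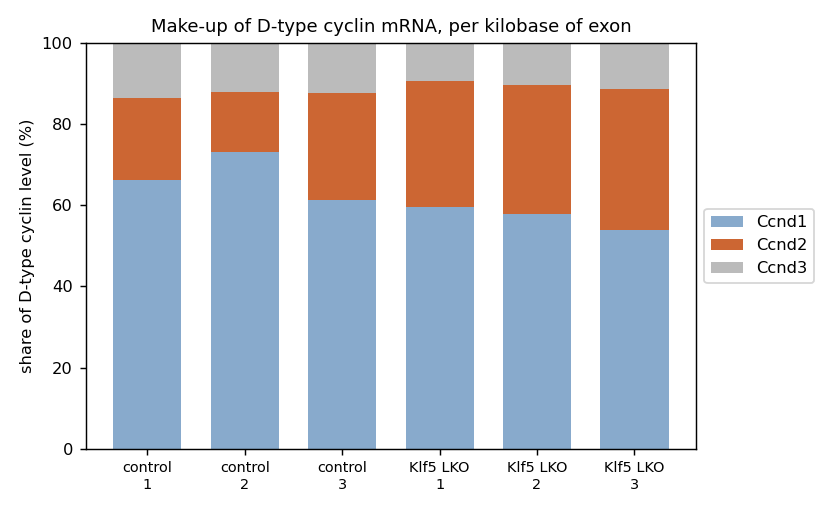
Share (%, vertical axis) of Ccnd1 (pale blue), Ccnd2 (orange) and Ccnd3 (grey) in the summed D-type cyclin level per kilobase of exon, 1 bar per library. The orange segment covers 14.9% to 26.3% in control and 31.1% to 34.6% in Klf5 LKO, and Ccnd1 is the largest segment in every bar.

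Cdk4 (chromosome 10, 127063534 to 127067920, plus strand), the main partner kinase of the D-type cyclins in epithelium, had 5416, 4993 and 4111 normalised counts in control against 4343, 4879 and 4327 in Klf5 LKO. The groups overlapped, with a log2 fold change of -0.09 (SE 0.13) and a 95% confidence interval of -0.38 to 0.19. Cdk4 shares 19.7% of its exon bases with Tspan31 on the opposite strand, which had 2119 to 3254 normalised counts, and the strand used in counting is not given in the sources used here. Reads of the overlapping ends of these genes may therefore have gone to either.

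Cdk6 (chromosome 5, 3341485 to 3531008, plus strand), the kinase prominent in blood cells, had 387, 489.9 and 393 normalised counts in control against 349, 371 and 374 in Klf5 LKO. Each Klf5 LKO library was below each control library, but by a small step: the highest Klf5 LKO value, 374, lay just under the lowest control value, 387. The log2 fold change was -0.21 with a 95% confidence interval of -0.63 to 0.22, which includes 0. Per kilobase, Cdk4 made up 97.8% to 98.4% of the sum of both kinases in control and 98.0% to 98.3% in Klf5 LKO. With no division by length it made up 91.1% to 93.3% in control and 92.0% to 92.9% in Klf5 LKO. Cdk4 was thus by far the larger part in each library, though its counts may include reads of Tspan31.

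Cdkn2c (chromosome 4, 109660876 to 109667189, minus strand), which codes for the INK4 inhibitor p18, had 235, 309.8 and 261 normalised counts in control against 122, 160.2 and 118 in Klf5 LKO. The groups did not overlap. The means were 269 ± 37.8 and 133 ± 23.4 (SD, n = 3 each), and the difference was -1.01 on the log2 scale (SE 0.27, interval at 95% confidence -1.59 to -0.43). Leaving out 1 library at a time gave -1.15 (without Klf5 LKO 2) to -0.90 (without control 2), and the leukocyte term gave -1.07. The authors' deposited table gives a log2 fold change of -0.68 (SE 0.20). DESeq2 on the recovered reads gave -1.01 (SE 0.31), so the deposited value is not a like measure.

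Cdkn2b (chromosome 4, 89306299 to 89311039, minus strand), which codes for the INK4 inhibitor p15, a transcript known to respond to TGF-beta, had 157, 207 and 243 normalised counts in control against 373, 176 and 202 in Klf5 LKO. Klf5 LKO 1 stood above the other 5 libraries, and the remaining Klf5 LKO libraries lay within the control range. The log2 fold change was 0.25 (SE 0.32), with 95% confidence bounds of -0.45 to 0.94, and it was -0.08 without Klf5 LKO 1. Of the summed Cdkn2b and Cdkn2c level per kilobase, Cdkn2c made up 43.7%, 43.6% and 35.8% in control against 14.4%, 32.0% and 23.2% in Klf5 LKO, which is lower in all 3.

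Cdkn2a (chromosome 4, 89274471 to 89294653, minus strand), which codes for the INK4 inhibitor p16 and, in another reading frame, for the p53 activator ARF, had 0 reads in all 6 libraries. A count of 0 allows up to 3 reads, or 2.24 to 4.74 normalised counts depending on the library, for counting error only. Cdkn2a and Cdkn2b lie 11645 bases apart on the same strand, and Cdkn2b had 157 counts or more in every library. Transcripts of Cdkn2a were thus not detectable at this depth in either group.

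The promoters of Cdkn2c and Cdkn2b are shown because these INK4 genes of like function differed in how their groups lay. Sequences are from RefSeq on GRCm38.p6, the assembly of mm10, where 7 of the 10 members matched an entry and Ccnd1, Ccnd2 and Rb1 did not. Windows of 250 bases before each annotated start were searched on both strands for GGGCGG, the GC box, and for CACCC, both known as binding letters of the KLF and SP family. They were also searched for 4 forms of the E2F site, TTTCCCGC, TTTGGCGC, TTTCGCGC and TTTGCCGC. Capitals mark every match, and matches of different motifs may share letters. The window before the first start of Cdkn2c holds 3 GC boxes and 1 CACCC match, and all its 250 bases lie inside an annotated exon of the gene. Only a stretch of 30 bases is printed (chr4:109666782-109666811, minus strand, 55 to 26 bases before the start). It was picked around 2 of the 3 GC boxes and leaves out the CACCC match.
Cdkn2c, first start: cgttGGGCGGggcgtGGGCGGggcccggcc
The window before the second start of Cdkn2c (chr4:109665373-109665622, minus strand) holds 1 CACCC match and no GC box.
Cdkn2c, second start: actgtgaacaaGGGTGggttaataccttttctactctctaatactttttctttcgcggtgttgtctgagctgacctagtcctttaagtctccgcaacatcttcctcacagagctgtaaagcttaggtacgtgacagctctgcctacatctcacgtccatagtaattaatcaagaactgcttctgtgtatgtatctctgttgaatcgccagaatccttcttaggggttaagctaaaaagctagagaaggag
The window of Cdkn2b (chr4:89311033-89311282, minus strand) holds 2 adjoining CACCC matches and no GC box.
Cdkn2b: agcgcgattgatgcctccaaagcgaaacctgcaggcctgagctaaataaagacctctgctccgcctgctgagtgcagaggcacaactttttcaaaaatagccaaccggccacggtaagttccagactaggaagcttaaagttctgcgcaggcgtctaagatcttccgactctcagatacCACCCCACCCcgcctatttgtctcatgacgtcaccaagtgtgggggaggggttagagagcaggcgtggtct

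Over the 10 windows of the 7 matched members, 6 held a GC box, 9 a CACCC match and 1, the first start of Cdkn2a, an E2F form. Among all 32851 windows of the same length in the table, 32.7% held a GC box, 52.0% a CACCC match and 1.86% an E2F form. The matches describe letters in these windows and were not tied to binding, which was not measured.

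Cdkn1b (chromosome 6, 134920401 to 134925513, plus strand), which codes for p27, had 189, 136 and 173 normalised counts in control against 182, 189 and 221 in Klf5 LKO. The groups overlapped, with a log2 fold change of 0.26 (SE 0.27) and a 95% confidence interval of -0.32 to 0.84. p27 is known to be set largely by protein turnover, which these data do not measure.

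Rb1 (chromosome 14, 73183673 to 73325822, minus strand), which codes for the retinoblastoma protein that the D-type cyclin kinases phosphorylate, had 464, 405 and 397 normalised counts in control against 327, 348 and 412 in Klf5 LKO. Klf5 LKO 3 lay within the control range and the other Klf5 LKO libraries below it. The log2 fold change was -0.22 (SE 0.20), with 95% confidence bounds of -0.65 to 0.21. Lpar6 and Rcbtb2, both on the opposite strand, share 6.78% and 8.11% of its exon bases.

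**Figure D3:**
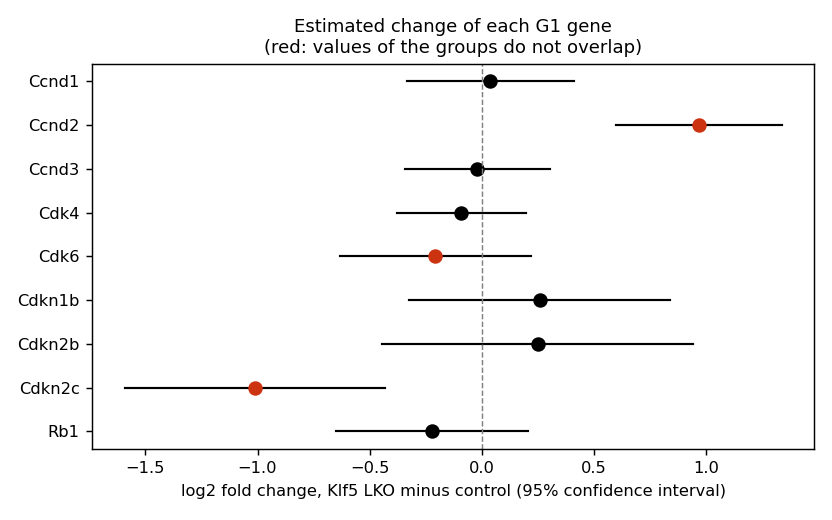
Log2 fold change of Klf5 LKO minus control (horizontal axis) of the 9 members with reads, as points with 95% confidence intervals from the limma fit; red points are genes whose values did not overlap between groups. The interval of Ccnd2 runs from 0.60 to 1.34 and that of Cdkn2c from -1.59 to -0.43. The members were chosen with this contrast in view, so the intervals describe the estimates and are no test.

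Levels of the members were ordered by normalised count per kilobase of exon over all 6 libraries. Cdk4 was the highest, at 1489.7 ± 205 in control and 1390.1 ± 96.7 in Klf5 LKO (SD, n = 3 each), and its range over the libraries did not overlap that of the next gene. Ccnd1 followed at 527 ± 82.6 and 545 ± 115, and was above Ccnd2, at 159 ± 36.7 and 307 ± 34.7, in 6 of 6 libraries. Cdkn2b had 146 ± 30.9 and 180.1 ± 77.0, and its range overlapped that of Ccnd2. Ccnd3 (99.3 ± 4.67 and 98.0 ± 7.34) and Cdkn2c (100.1 ± 14.1 and 49.6 ± 8.69) overlapped, as did Cdkn2c and Rb1 (70.2 ± 6.12 and 60.2 ± 7.36). Cdkn1b (36.4 ± 5.93 and 43.3 ± 4.68) and Cdk6 (30.3 ± 4.12 and 26.1 ± 0.963) were the lowest genes with reads, and their ranges overlapped. On this scale Cdkn2c stood beside Ccnd3 in control, while its 3 Klf5 LKO libraries, at 45.3, 59.7 and 44.0, were below all values of Ccnd3. That standing depends on the length used. With no division by length, Cdkn2c was below Ccnd3 in control too, at 235 to 310 against 824 to 898 normalised counts. With the longest annotated transcript as the length, the means over all libraries were 81.4 for Cdkn2c and 224 for Ccnd3. With the longest annotated transcript as the length, Ccnd3 stood above Cdkn2b and Rb1 above Cdkn2c, and the first 3 and the last 2 places kept their genes.

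**Figure D4:**
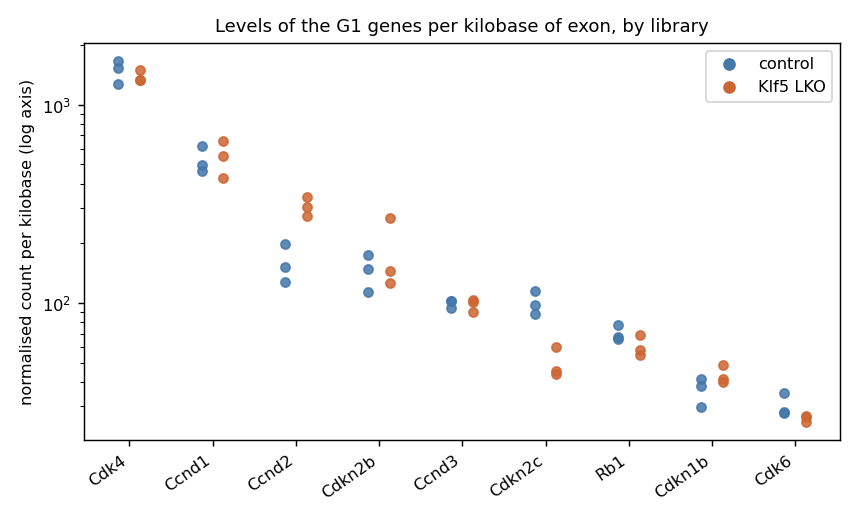
Normalised count per kilobase of exon (vertical axis, log scale) of the 9 members with reads, ordered by mean level; blue points are control and orange points Klf5 LKO libraries. Cdk4 lies above 1265 in every library, and the groups separate for Ccnd2, Cdkn2c and, by a small step, Cdk6.

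Ratios within a library put the members side by side. The summed D-type cyclin level was 0.442, 0.541 and 0.586 of the summed Cdk4 and Cdk6 level in control against 0.810, 0.627 and 0.581 in Klf5 LKO, so the groups overlapped, by 0.586 against 0.581. With no division by length they did not overlap, at 0.802, 0.915 and 1.08 against 1.54, 1.21 and 1.14. The summed level of Cdkn2b and Cdkn2c (Cdkn2a had no reads, and Cdkn2d is not in the sum) was 0.118, 0.168 and 0.210 of the summed kinase level in control against 0.230, 0.122 and 0.140 in Klf5 LKO, which also overlapped. Cdkn2b made up the larger part of this sum per kilobase in every library, but with no division by length Cdkn2c did in control, at 59.95%, 59.94% and 51.8%. The ratio of Ccnd2 to Ccnd1 was 0.306, 0.204 and 0.428 in control against 0.523, 0.551 and 0.642 in Klf5 LKO, without overlap.

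The other genes of G1 control were read from a list of 33 partners and regulators, all of which were tested. None passed the limma fit (0 higher, 0 lower), edgeR also called 0, and DESeq2 called 1, Myc. By limma 7 of the 33 had an unadjusted p under 0.05, where 1467 of all 13490 tested genes did. The list's median log2 fold change was -0.18, against -0.01 over all tested genes, and 24 of the 33 had negative log2 fold changes, against 50.8% of all genes. Its most abundant members were the chaperone Hsp90ab1 (29456 ± 2021 in control and 29322 ± 2433 in Klf5 LKO), Trp53 (4723 ± 879 and 5110.2 ± 1293) and the E2F partner Tfdp1 (2416 ± 242 and 1815 ± 525), and each overlapped between groups. Further genes of the list named here were picked after their values were seen. Myc, a transcription factor known to act on Ccnd2, had 1172, 1067 and 1656 in control against 1979, 1909 and 1918 in Klf5 LKO (log2 fold change 0.60, adjusted p = 0.162 by limma). It was the 1 gene of the 33 higher in all Klf5 LKO libraries, where 7.72% of all tested genes were. A link between Myc and Ccnd2 in these libraries was not tested.

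The 5 list genes lower in every Klf5 LKO library, where 7.88% of all genes were, were E2f1, E2f3, E2f8, Cdk2 and Cdkn2d. Cdkn2d, which codes for the remaining INK4 inhibitor p19, had 224, 158 and 152 in control against 100.2, 91.7 and 146 in Klf5 LKO (log2 fold change -0.67, SE 0.32). E2f1, an activator of S phase genes that is itself released by Rb, had 688, 752 and 553 in control against 398, 537 and 477 in Klf5 LKO (log2 fold change -0.50, SE 0.19). Neither passed, with limma adjusted p = 0.481 and 0.363. The E-type cyclins, which take over from D-type cyclins late in G1, had overlapping values but lower estimates in Klf5 LKO. Ccne1 had 233, 166 and 239.8 in control against 87.9, 174 and 121 in Klf5 LKO (log2 fold change -0.77, SE 0.32). Ccne2 had 45.1, 88.5 and 151 against 17.3, 55.9 and 10.6 (log2 fold change -1.90, SE 0.67). Their limma adjusted p was 0.414 and 0.297. Cdkn1a, which codes for the p53-induced inhibitor p21, had 543, 959 and 886 against 836, 1055 and 1033 and overlapped too.

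Downstream, of 40 E2F target genes of S phase, all tested, 0 rose, 2 fell and 38 did not pass. By limma 24 of the 40 had an unadjusted p under 0.05, where 1467 of all 13490 tested genes did. The median log2 fold change was -0.49, 39 of the 40 had negative log2 fold changes and in 20 the Klf5 LKO values all lay below control. Over all tested genes the median was -0.01, 50.8% were negative, 7.88% lay below control without overlap and 0.489% were called lower. Those that fell were Clspn, which helps to activate checkpoint signalling at stalled forks, with 186, 177 and 149 in control against 49.3, 34.3 and 37.3 in Klf5 LKO (limma adjusted p = 0.0252), and Rrm2, a subunit of ribonucleotide reductase, with 1376, 1489 and 1029 against 729.6, 599 and 483 (limma adjusted p = 0.0273). The count of 2 became 0 without control 1, control 2 or Klf5 LKO 3 and with the leukocyte term, and 1 without control 3 (Rrm2) or Klf5 LKO 2 (Ccna2). The log2 fold changes stayed near their sizes of -1.10 for Rrm2 and -2.07 for Clspn: they were -1.03 and -1.98 with the leukocyte term, and spanned -1.26 to -0.95 and -2.22 to -1.96 over the fits without 1 library. The count of E2F targets called was 7 with DESeq2. E-type cyclins and Ccna2 are themselves known E2F targets, so the lists around the members are not independent of each other. Whether the share of 20 in 40 differs from that of the members was not tested.

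Upstream, none of 38 tested signalling and transcription factors that act on D-type cyclin or inhibitor genes passed by limma (0 higher, 0 lower). EdgeR called 0, and DESeq2 called Jun (higher) and Ezh2 (lower). By limma 7 of the 38 had an unadjusted p under 0.05, where 1467 of all 13490 tested genes did. The median log2 fold change was 0.05, against -0.01 over all tested genes. Without overlap 5 were higher and 2 lower, where 7.72% and 7.88% of all genes were. The most abundant were Jun, Junb and Id2. Jun, an AP-1 factor known to act on Ccnd1, had 21432, 21368 and 23501 in control against 32506, 24646 and 35565 in Klf5 LKO (log2 fold change 0.47, SE 0.15, limma adjusted p = 0.257). Junb (19240 ± 1895 and 26077 ± 5602) and Id2 (16411 ± 2395 and 17202 ± 2586) overlapped between groups. Ezh2, named after its values were seen, a Polycomb enzyme known to silence Cdkn2a and also counted among the E2F targets, had 612, 507 and 558 against 369.7, 291 and 327, without overlap (log2 fold change -0.77, limma adjusted p = 0.118).

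**Figure D5:**
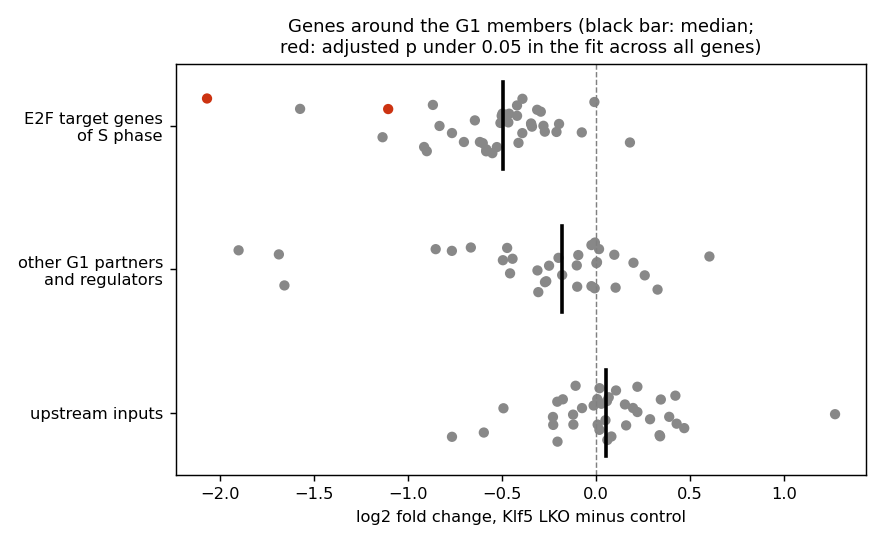
Log2 fold change of Klf5 LKO minus control (horizontal axis) of single genes in 3 lists around the G1 members; black bars are list medians (0.05, -0.18 and -0.49 for upstream inputs, other G1 partners and E2F targets), and red points have an adjusted p under 0.05 in the limma fit across all genes. Only Clspn and Rrm2, among the E2F targets, are red.

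Genes with the most similar profile were sought for 8 members among 10726 other genes with a mean of at least 100, by the Pearson correlation of log2 values over the 6 libraries of both groups, in which the difference between groups counts too. For Ccnd2 they were Plscr2, Ebna1bp2 and Napb, and for Cdkn2c they were Tk1 and Ammecr1. Tk1, a thymidine kinase of S phase and a gene of the E2F target list, had 533, 689 and 518 in control against 278, 373 and 282 in Klf5 LKO, and in each group its highest library was library 2, as for Cdkn2c. For Ccnd1 they were Ipo9, Hacd3 and Surf4, for Ccnd3 Stip1 and Spidr, for Cdk4 Cbx1, Rogdi and Dap, for Cdk6 Atp1b3, Ncapd3 and Pold2, for Cdkn1b Ptrhd1, Usp42 and Dnajb2, and for Rb1 Mcm8, Nop10 and Tmed3. The correlations of the genes named here lay between 0.978 and 0.999. Between 12 and 57 of the 10726 genes per member exceeded 0.95. Because the highest of so many genes were taken over only 6 libraries, a high value alone means little.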

How the data were processed

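Members, lists and tests were chosen with earlier results of these data known. Per the labels' protocols, each library began with 4 ng of RNA and went through 10 pre-amplification cycles and then 7 cycles of enrichment PCR, which adds noise for low genes. The submitters' processing notes name TopHat, Bowtie2, DESeq2 and the build mm10. How reads were assigned to genes, and with which annotation, is not given in the sources used here. The authors deposited a signal per gene and library, a read count divided by 1 size factor. Dividing by the smallest step of each library gave whole reads for 100% of values (tolerance 0.001), so reads were recovered; on them DESeq2 called 335 genes, edgeR 84 and voom 74, against 88 in the limma fit. A second table deposited by the authors holds, for the same contrast, log2 fold changes, a Wald statistic (a score) and p-values.

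Because the values are normalised, limma 3.58.1 (lmFit, eBayes with trend) in R 4.3.3 was fitted to log2(value + 1) of 13490 genes (mean value 10 or more), two-sided, with Benjamini-Hochberg adjustment over all of them and a threshold of 0.05; edgeR 4.0.16 (quasi-likelihood) and DESeq2 1.42.0 on recovered reads were alternatives, and the fits were tested on simulated data. Fold changes use this scale, which understates changes of low genes, except where the authors' deposited values or another fit or setting are named. Exon lengths and positions are from GENCODE M21 (GRCm38). Named genes are the 10 members, Klf5, up to 6 called genes of each list or its 3 most abundant, the 3 genes most like each of 8 members (some are not reported here), and the 2 most abundant of each marker list; others are named as chosen after their values were seen.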

Additional observations from a re-analysis of the deposited data

How the results depend on the processing

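The log2 fold changes of all 9 members with reads moved by less than 1 SD between replicates under every alternative: TMM and upper-quartile scaling, filtering at a mean of 50 or not at all, pseudocounts 0.5 and 5, DESeq2, edgeR and voom on recovered reads, a replicate block, a leukocyte term and leaving out each library. Filters and the replicate block cannot change an estimate here, and leaving out 1 library can rarely move it by 1 SD. That criterion therefore says little about stability. Ccnd2 ranged from 0.81 to 1.14 and Cdkn2c from -1.15 to -0.90, while Ccnd1, Ccnd3 and Cdkn2b changed sign when single libraries were left out. Members without overlap numbered 3 to 4. Leaving out 1 library gave 14 to 105 called genes in all and 0 to 3 E2F targets. DESeq2 called 335 genes, 7 E2F targets, 1 other G1 regulator and 2 upstream inputs. The E2F target count was 1 with no filter and 0 with the leukocyte term; 2 genes passed in the fit as reported. Of the 8 neighbouring pairs in the order of levels, 6 kept their order with the longest transcript as length and 5 with no length correction. The Ccnd3 share differed by -2.24 percentage points, by -3.61 with the longest transcript and by -4.26 without length. Without length the difference was 0.625 points for the Cdk4 share, 0.364 for the D-type cyclin to kinase ratio and 0.518 for the Ccnd2 to Ccnd1 ratio; the groups' cyclin to kinase ratios then no longer overlapped, and Ccnd2 passed Ccnd1 as the largest share in Klf5 LKO.

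The groups share replicate numbers, but nothing in the labels pairs them, and the deviations of same-numbered libraries correlated at 0.18, -0.01 and 0.11. With the replicate block, 110 genes and 4 E2F targets were called. Not every library correlated best with its own number, so the block is given only as an alternative. Depth limits Cdkn2a, where 3 reads or fewer cannot be told from 0.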
